A study of Rattus norvegicus with 4 samples.

Results

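The genes described here are 46 chemokine, cytokine and NF-kB genes, chosen by name, of 17147 gene names in the deposited table. They are 10 chemokines, 9 cytokines, 6 cytokine receptors and feedback genes, 5 NF-kB subunits, 5 NF-kB inhibitors, 5 adhesion, enzyme and survival targets of NF-kB, and 6 innate sensors and adaptors. Of the 46, 43 had a row in the table and 40 had a mean value high enough to be tested, while Rel, Relb and Tnfaip3 were not analysed here. The cells were neonatal rat ventricular myocytes (NRVMs), primary heart muscle cells of newborn rats (the source is labelled as left ventricle), kept in a serum-free medium with the supplement Nutridoma. They received either TMP195, an inhibitor of the class IIa histone deacetylases, at 3 µM in 2 libraries, or its solvent DMSO (vehicle) in the other 2, in both cases for 48 hours. Whether each library is a culture of its own is not stated in the labels. The p-values therefore rest on the spread among these 4 libraries only, and that spread could be technical. It was mostly the spread shared over genes of similar level, and less each gene's own (residual degrees of freedom 2, prior 27.4).

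Chemokines are small secreted proteins that draw leukocytes along a gradient, and cytokines such as interleukin 1, interleukin 6 and tumour necrosis factor (TNF) act on receptors that switch on NF-kB or the JAK-STAT pathway. NF-kB is a family of dimeric transcription factors held in the cytoplasm by inhibitors of the IkB family until a kinase complex marks these for destruction. Its target genes include several of its own inhibitors, which gives the pathway negative feedback. In the heart, myocytes, fibroblasts, endothelial cells and resident macrophages all make some of these signals, and injury raises many of them.

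The values are the authors' estimated fragments per gene, scaled by a factor of each library, and are called scaled fragments below. The 2 TMP195 libraries corresponded to 14232152 and 13097078 fragments and the 2 vehicle libraries to 12902269 and 11768452, so that a value of 100 rests on about 100 fragments. Markers of cardiac myocytes were abundant in all 4 libraries, with summed values of 529120 and 531642 in TMP195 libraries and 562505 and 572020 in vehicle libraries. Markers of fibroblasts were also present, summing to 69752 and 72669 in TMP195 libraries, against 97855 and 94436 in vehicle libraries. Most of each sum came from the collagen gene Col1a1 (47643 and 49638 in TMP195 libraries, 69970 and 66449 in vehicle libraries). Of 11 fibroblast markers tested 6 fell and 5 gave no call, among them Dcn, Ddr2 and Postn. The sums are therefore no measure of fibroblast number. With such markers present, the RNA is from a culture that is not of myocytes alone. In such bulk RNA fewer cells of a type and less RNA per cell cannot be told apart.

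With TMP195, 9 of the 40 tested genes rose, 3 fell and the other 28 gave no call. Those that rose were the chemokines Ccl2 and Cxcl1, and the receptor chains Il6st, Tnfrsf1a and Tnfrsf12a. The IkB family genes Nfkbia, Nfkbib and Nfkbiz and the adaptor Card9 rose too. The chemokines Cxcl12 and Cx3cl1 and the cytokine Csf1 fell. The changes were mostly modest: besides Card9, which was 2.93-fold higher, the increases ran between 1.23 and 1.67-fold and the decreases between 0.598 and 0.777 times the vehicle level. Over all 12689 genes tested in the same limma fit, 9.93% passed as higher and 10.3% as lower (Benjamini-Hochberg adjusted p under 0.05), and of the 40 these were 22.5% and 7.5%. The median log2 fold change of the 40 was 0.10, beside -0.01 over all genes tested. In 17 of the 40 both TMP195 libraries lay above both vehicle libraries and in 9 both lay below, where 28% and 28.7% of all tested genes did so.

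**Figure D1:**
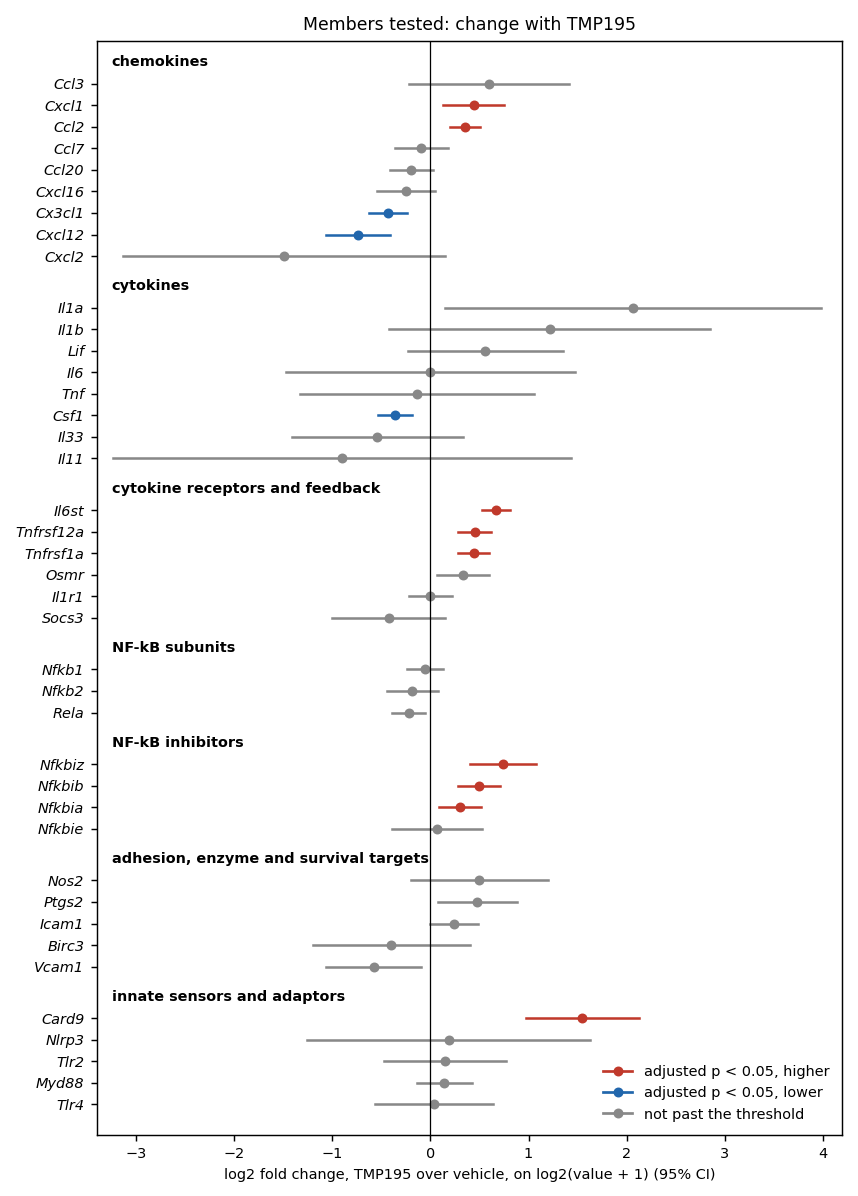
Log2 fold change (TMP195 over vehicle, on the log2(value + 1) scale, x axis) of the 40 tested genes, ordered within each role group (y axis), with 95% confidence intervals from the limma fit; red and blue mark the 9 genes that rose and the 3 that fell. The 3 tested NF-kB subunits lie left of 0 and the 4 tested IkB family genes, in the inhibitor group, right of it. The intervals of the low-level cytokines Il11 and Il1a are the widest.

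The calls followed the level of the gene. Of the 7 most abundant genes, at a mean of at least 1000 scaled fragments, 5 were called, as were 6 of 16 between 100 and 1000, 1 of 11 between 10 and 100, and 0 of 6 between 1 and 10, where 0 also passed an adjusted p with limma-voom and Il1a had an unadjusted limma p under 0.05. Over all genes, 38.3%, 23.6%, 8.24% and 0.99% were called in the same ranges. At the minimum mean of 1 used for the test, the calls also depended on having all 4 libraries. Without vehicle 1, vehicle 2 or TMP195 2, limma called 0 of the 12 genes, although 9, 12 and 10 of them had an unadjusted p under 0.05, and without TMP195 1 it called 5 (Ccl2, Cxcl12, Il6st, Tnfrsf1a and Card9). When genes under a mean value of 100 were left out of the test, a setting chosen after seeing the data, it called 10, 10, 9 and 10 of the 11 remaining genes without vehicle 1, vehicle 2, TMP195 2 and TMP195 1. With no filter on low values limma also called 0 of the 12, at an adjusted p between 0.0566 for Nfkbib and 0.354 for Nfkbia, although 11 had an unadjusted p under 0.05. The 12 genes kept their direction in each of these fits.

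**Figure D2:**
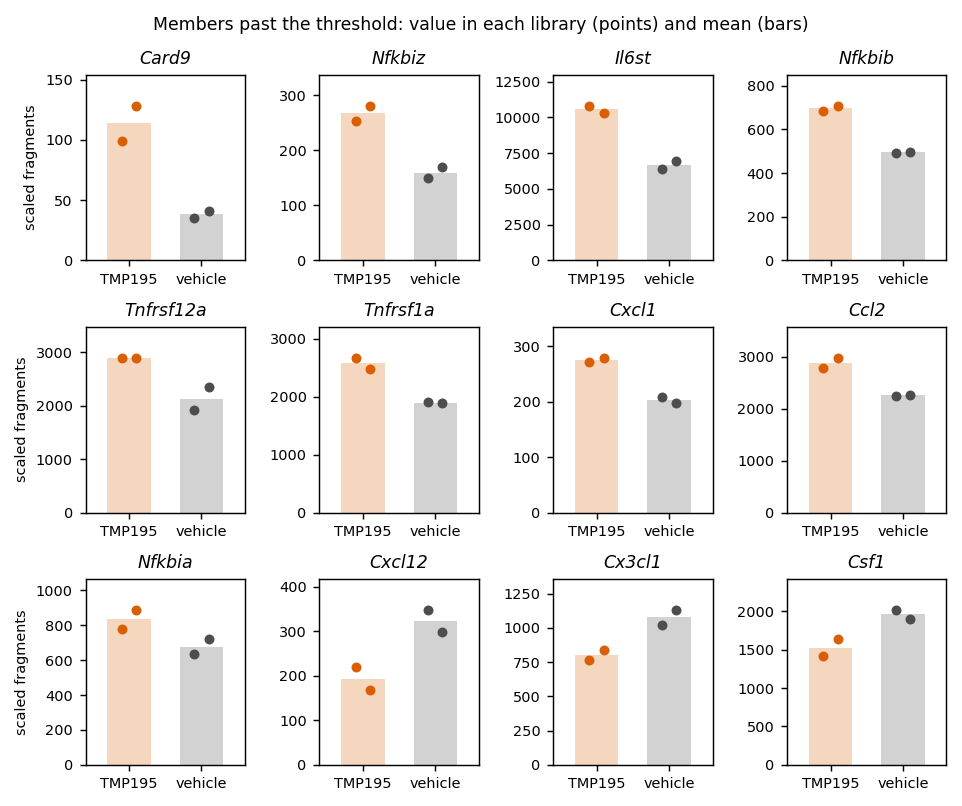
Value in each library (points, scaled fragments, y axis from 0) and group mean (bars) of the 12 genes past the threshold, with TMP195 in orange and vehicle in grey. In each of the 12 panels the 2 TMP195 libraries lie on 1 side of the 2 vehicle libraries, with Card9 the most separated in proportion and Nfkbia among the least.

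Among the 9 tested chemokines, Ccl2 and Cxcl1 rose, Cxcl12 and Cx3cl1 fell, and 5 gave no call. Ccl2 encodes MCP-1, the main attractant of monocytes. Its value was 2774 and 2981 scaled fragments in TMP195 libraries, against 2252 and 2260.1 in vehicle libraries. The vehicle libraries were nearly alike and both TMP195 libraries were above them, a 1.27-fold rise (95% confidence interval 1.146 to 1.42; limma adjusted p = 0.000889). Cxcl1, a neutrophil attractant that acts through CXCR2, had 271 and 279 scaled fragments in TMP195 libraries and 208 and 197 in vehicle libraries. The groups did not overlap, and the gene was 1.36-fold higher (interval 1.09 to 1.68; limma adjusted p = 0.0383). Besides the setting with no filter, scaling to equal library totals ended that call (limma adjusted p of 0.0533). Over the 6 planned settings its adjusted p ran between 0.0316 and 0.0969. Cxcl2, the close relative and chromosome neighbour of Cxcl1, had only 1.76 and 2.88 scaled fragments in TMP195 libraries and 5.69 and 11.6 in vehicle libraries, and did not pass (log2 fold change -1.49 ± 0.80 SE, limma adjusted p = 0.210).

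The 2 chemokines that fell are made by cells of the vessel wall and stroma as well as by other cells. Cxcl12, which encodes SDF-1 and keeps CXCR4-bearing cells in tissues, had 219.7 and 168 scaled fragments in TMP195 libraries, against 348 and 298 in vehicle libraries. Both TMP195 libraries were lower, and the gene fell to 0.598 times its vehicle level (interval 0.477 to 0.749; limma adjusted p = 0.000870). Its main receptor gene Cxcr4 also fell, with 19.3 and 16.3 scaled fragments in TMP195 libraries and 43.6 and 50.6 in vehicle libraries (log2 fold change -1.35, limma adjusted p = 0.0129). Ackr3, its scavenging receptor, had a log2 fold change of -0.45 (limma adjusted p = 0.0693) and did not pass. Cx3cl1 encodes fractalkine, a membrane-bound chemokine that tethers monocytes. It had 764 and 837 scaled fragments in TMP195 libraries and 1023 and 1132 in vehicle libraries, with no overlap, and fell to 0.743 times its vehicle level (interval 0.650 to 0.850; limma adjusted p = 0.00120). Fibroblast, mural, endothelial and cardiac myocyte markers that fell are given below, and the part of these cell types in the 2 decreases was not tested.

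The other chemokines gave no call. Ccl20, the ligand of CCR6, had 736 and 908 scaled fragments in TMP195 libraries and 848 and 1033 in vehicle libraries, and Ccl7, a relative of Ccl2, had 321 and 376 in TMP195 libraries and 344 and 398 in vehicle libraries. In both genes the groups overlapped. Cxcl16, which binds CXCR6, had 261 and 255 scaled fragments in TMP195 libraries and 281 and 334 in vehicle libraries, with a log2 fold change of -0.25 (limma adjusted p = 0.256). Ccl3, the macrophage protein MIP-1 alpha, stood at 17.9 to 40.3 scaled fragments across the 4 libraries (log2 fold change 0.59, SE 0.40). Ccl5 was listed at 0 in all 4 libraries. Such a 0 does not show absence: Col1a2, a collagen gene, stands at 0 in all 4 libraries as well.

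Of the 8 tested cytokine genes only Csf1 passed the test, and it fell. Csf1 encodes the growth factor on which macrophages depend, and had 1416 and 1639 scaled fragments in TMP195 libraries and 2021 and 1902 in vehicle libraries. Both TMP195 libraries were lower (0.777 times the vehicle level, interval 0.690 to 0.876; limma adjusted p = 0.00191). The classical inflammatory cytokines were each counted in at most 17 fragments per library. Il6 had 6.15 and 6.71 scaled fragments in TMP195 libraries and 3.79 and 10.5 in vehicle libraries, and Tnf had 9.67 and 11.5 in TMP195 libraries and 16.1 and 8.43 in vehicle libraries. Il1b, with 8.79 and 7.67 scaled fragments in TMP195 libraries and 6.64 and 1.05 in vehicle libraries, and Il1a, with 4.39 and 12.5 in TMP195 libraries and 0 and 3.16 in vehicle libraries, were higher in both TMP195 libraries without passing the test (limma adjusted p of 0.319 and 0.127). Their 95% intervals on the log2 scale were wide, at -0.42 to 2.85 for Il1b and 0.15 to 3.98 for Il1a. Lif, a cytokine that signals through gp130 and induces myocyte growth, had 39.5 and 50.8 scaled fragments in TMP195 libraries and 19.9 and 45.3 in vehicle libraries, with overlap. Il33, an alarmin, had 21.1 and 18.2 scaled fragments in TMP195 libraries and 28.4 and 29.5 in vehicle libraries (log2 fold change -0.54, SE 0.43). Il11 lay between 0 and 4.21 scaled fragments, and Csf2, with at most 0.948, was not tested.

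Of the 6 receptor and feedback genes, Il6st, Tnfrsf1a and Tnfrsf12a rose, 0 fell and 3 gave no call. Il6st encodes gp130, the signalling chain shared by the receptors of interleukin 6, LIF, oncostatin M and cardiotrophin. Its value was 10833 and 10281 scaled fragments in TMP195 libraries, against 6392 and 6928 in vehicle libraries. The groups were well apart, and the 1.59-fold rise (interval 1.44 to 1.75) had the smallest p of the 40 genes (limma adjusted p = 1.72e-08). Lifr, the chain that pairs with gp130 to bind LIF, moved the other way, with 341 and 313 scaled fragments in TMP195 libraries and 682 and 612 in vehicle libraries (log2 fold change -0.98, limma adjusted p = 2.13e-07). Osmr, the chain that pairs with gp130 to bind oncostatin M, had 608 and 452 scaled fragments in TMP195 libraries and 442 and 394 in vehicle libraries. TMP195 1 stood above the other 3 libraries. The log2 fold change of 0.33 (limma adjusted p = 0.0713) was 0.11 without TMP195 1 and 0.54 without TMP195 2, and it passed as a rise when genes under a mean of 100 were left out (limma adjusted p = 0.0355). Socs3, the inhibitor induced by gp130 signals, had 65.9 and 56.6 scaled fragments in TMP195 libraries and 64.5 and 105 in vehicle libraries, with overlap.

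Both TNF family receptors among the genes described here rose, which does not hold for every receptor of that family in the list of other cytokine receptors. Tnfrsf1a, the main receptor of TNF on most cells, had 2671.5 and 2476 scaled fragments in TMP195 libraries and 1900.3 and 1887 in vehicle libraries. The 1.36-fold rise (interval 1.22 to 1.51; limma adjusted p = 7.31e-05) came with vehicle libraries that were nearly alike. Tnfrsf12a, the receptor Fn14 of the cytokine TWEAK, had 2895 and 2891 scaled fragments in TMP195 libraries and 1913 and 2344 in vehicle libraries. The vehicle libraries differed from each other but both were lower, and the gene was 1.37-fold higher (interval 1.21 to 1.54; limma adjusted p = 0.000166). The gene of TWEAK itself, Tnfsf12, fell, with 134 and 142 scaled fragments in TMP195 libraries and 239.9 and 201 in vehicle libraries (log2 fold change -0.67, limma adjusted p = 0.00647). Il1r1, the signalling receptor of interleukin 1, had 535 and 571 scaled fragments in TMP195 libraries and 567 and 539 in vehicle libraries, a log2 fold change of 0.00 with a 95% interval of -0.22 to 0.22.

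The 4 tested genes of the inhibitor group are all of the IkB family, and 3 of them rose, the nuclear member Nfkbiz included. Of the 3 tested subunits 0 passed in limma, where Rela alone had an unadjusted p under 0.05. The difference between these groups was not tested. Rela, the transactivating subunit p65, had 1470.2 and 1513.5 scaled fragments in TMP195 libraries and 1801.7 and 1679.8 in vehicle libraries. Both TMP195 libraries were lower, and the log2 fold change of -0.22 (95% interval -0.39 to -0.06; limma adjusted p = 0.0520) just missed the threshold. It passed as a decrease under 3 of the 6 planned settings (equal library totals, limma-voom and a minimum mean of 10), over which its adjusted p ran between 0.0227 and 0.194. Nfkb1, the precursor of p50, had 1081 and 1138 scaled fragments in TMP195 libraries and 1181.5 and 1126 in vehicle libraries, and Nfkb2, the precursor of p52 in the non-canonical branch, had 391.9 and 511 in TMP195 libraries and 476 and 543 in vehicle libraries. In both the groups overlapped (limma adjusted p of 0.721 and 0.344), and subunit activity is not measured by RNA.

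Nfkbiz showed the largest change of the IkB family genes. It encodes IkB-zeta, a nuclear IkB protein that modulates a subset of NF-kB targets. It had 253 and 281 scaled fragments in TMP195 libraries, against 149 and 169.6 in vehicle libraries, and the 1.67-fold rise (interval 1.33 to 2.11; limma adjusted p = 0.00120) was clear of the spread in both groups. Nfkbib, which encodes the cytoplasmic inhibitor IkB-beta, had 685 and 709.7 scaled fragments in TMP195 libraries and 493 and 496 in vehicle libraries. Each pair was tight, and the gene was 1.41-fold higher (interval 1.21 to 1.64; limma adjusted p = 0.000812). Nfkbia, which encodes IkB-alpha, the fast feedback inhibitor, had 781 and 888 scaled fragments in TMP195 libraries and 633 and 720.4 in vehicle libraries. The groups did not overlap, at 1.23-fold higher (interval 1.07 to 1.43; limma adjusted p = 0.0355). Besides the setting with no filter, a pseudocount of 0.1 (limma adjusted p of 0.0567) and equal library totals (0.0523) ended the call, and over the 6 planned settings the adjusted p ran between 0.0262 and 0.354. Nfkbie, which encodes IkB-epsilon, had 98.4 and 118 scaled fragments in TMP195 libraries and 96.7 and 109.5 in vehicle libraries, with overlap.

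Promoters of several of these genes carry letters of the kB element that NF-kB dimers bind. RefSeq promoter windows of assembly GRCr8, from 250 bases before to 50 bases after the annotated start, were at hand for 36 of the 43 genes. The pattern GGNNTTTCC, searched on both strands, was found in the windows of 10 of the 36 genes, or 27% of their 37 windows (Il33 has 2). It was in 6.05% of all 33469 windows at hand and in 6.39% of the 9848 windows of tested genes. The genes were chosen by name, some of them as targets of NF-kB, so their higher share is no finding of these data. The 10 were Ccl20, Cxcl1, Cxcl2, Icam1, Il6, Nfkb1, Nfkb2, Nfkbia, Nfkbiz and Vcam1. The pattern was in 3 of 8 windows of genes that rose, 0 of 2 of genes that fell and 7 of 25 of genes that were tested and not called. A match is a description of letters and no evidence of binding in these cells. The 3 genes that rose and hold the pattern are printed with Cxcl2, the neighbour of Cxcl1 that holds it too and did not rise. Each runs 5′ to 3′ on the strand of the gene, and capitals mark the matches on either strand.
Cxcl1 (GRCr8 chr14:17479272-17479571, minus strand): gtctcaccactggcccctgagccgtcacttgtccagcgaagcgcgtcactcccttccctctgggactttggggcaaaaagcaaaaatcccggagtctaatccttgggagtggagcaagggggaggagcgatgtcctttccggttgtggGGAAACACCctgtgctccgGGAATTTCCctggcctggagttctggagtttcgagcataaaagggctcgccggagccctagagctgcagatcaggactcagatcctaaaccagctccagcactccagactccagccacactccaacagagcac
Cxcl2 (GRCr8 chr14:17467206-17467505, minus strand): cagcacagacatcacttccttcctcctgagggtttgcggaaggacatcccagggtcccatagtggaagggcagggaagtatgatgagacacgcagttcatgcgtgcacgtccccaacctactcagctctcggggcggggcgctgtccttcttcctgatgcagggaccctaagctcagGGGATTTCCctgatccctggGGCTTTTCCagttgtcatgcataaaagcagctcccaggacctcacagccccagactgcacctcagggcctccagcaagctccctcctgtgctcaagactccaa
Nfkbia (GRCr8 chr6:78597023-78597322, minus strand): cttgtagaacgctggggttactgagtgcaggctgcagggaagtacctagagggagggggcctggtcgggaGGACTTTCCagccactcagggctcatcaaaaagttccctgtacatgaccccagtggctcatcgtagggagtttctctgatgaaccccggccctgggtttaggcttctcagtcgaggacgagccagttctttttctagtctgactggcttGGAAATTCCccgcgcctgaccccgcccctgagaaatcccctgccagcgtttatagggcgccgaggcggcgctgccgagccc
Nfkbiz (GRCr8 chr11:58251471-58251770, plus strand): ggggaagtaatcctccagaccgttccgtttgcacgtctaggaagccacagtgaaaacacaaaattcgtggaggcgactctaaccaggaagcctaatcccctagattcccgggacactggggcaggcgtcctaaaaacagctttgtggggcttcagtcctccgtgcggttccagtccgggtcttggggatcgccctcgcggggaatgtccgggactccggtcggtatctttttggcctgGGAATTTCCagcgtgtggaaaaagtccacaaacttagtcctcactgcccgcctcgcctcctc

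The only match in Nfkbiz began 12 bases before the start and read GGAATTTCC. The same letters made the match 83 bases before the start of Cxcl1 and, on the other strand, the match 31 bases before that of Nfkbia. Icam1 and Nfkb1, which were not called, held these letters too, 218 bases before the start on the other strand and 5 bases after it. Nfkbia held a further match, GGACTTTCC, 180 bases before the start, and Nfkb2 held the same letters 19 bases before its start. Cxcl2 held matches 73 and 53 bases before its start. Of the genes that did not pass the test, Vcam1 held matches 246 and 93 bases before its start, Icam1 a further match 149 bases before its own, Il6 a match at 67 bases and Ccl20 a match at 89 bases. The windows of Il6st, Tnfrsf1a, Tnfrsf12a, Nfkbib and Card9, which all rose, held no match. Each window rests on the annotated start alone, and that of Il6st directly follows the letters ttacag, as at an intron end. The Il6st window may therefore not be its promoter, and the lack of a match there says nothing of that promoter.

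Of the 5 adhesion, enzyme and survival targets 0 passed in limma, and Vcam1 and Ptgs2 had an unadjusted p under 0.05. Vcam1, which binds leukocyte integrins, had 71.2 and 87.3 scaled fragments in TMP195 libraries and 129.9 and 107 in vehicle libraries. Both TMP195 libraries were lower (log2 fold change -0.58, SE 0.24, limma adjusted p = 0.0853). Ptgs2, the inducible cyclooxygenase COX-2, had 175 and 152 scaled fragments in TMP195 libraries and 112 and 122 in vehicle libraries, higher in both TMP195 libraries (log2 fold change 0.48, SE 0.20, limma adjusted p = 0.0877). Icam1, the other leukocyte adhesion molecule here, had 489 and 448 scaled fragments in TMP195 libraries and 424 and 371 in vehicle libraries (log2 fold change 0.24, limma adjusted p = 0.178). With limma-voom 0 of the 5 were called as well. Nos2, the inducible nitric oxide synthase, had 41.3 and 70.0 scaled fragments in TMP195 libraries and 32.2 and 44.2 in vehicle libraries. Birc3, the apoptosis inhibitor cIAP2, had 21.1 and 32.6 scaled fragments in TMP195 libraries and 35.1 and 34.8 in vehicle libraries.

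Card9 was the only one of 5 tested innate sensors and adaptors to pass, and had the largest change of the 12 called genes. It encodes the adaptor that links fungal pattern receptors of myeloid cells to NF-kB. Its value was 99.3 and 129 scaled fragments in TMP195 libraries, against 35.1 and 41.1 in vehicle libraries. The groups were far apart for so low a value, at 2.93-fold (interval 1.97 to 4.35; limma adjusted p = 0.000120). The RefSeq table of GRCr8 places Dnlz, which encodes a partner of a mitochondrial chaperone, in overlap with Card9, and without strand information fragments of overlapping genes cannot be told apart. Dnlz had 886 and 1062 scaled fragments in TMP195 libraries and 825 and 933 in vehicle libraries (log2 fold change 0.14, limma adjusted p = 0.350). Among the other called genes, Csf1, Il6st and Nfkbib each overlap an uncharacterised RefSeq gene, for which the same limit holds. Myd88, the adaptor of Toll-like and interleukin 1 receptors, had 328 and 307 scaled fragments in TMP195 libraries and 298 and 278 in vehicle libraries (log2 fold change 0.14, 95% interval -0.14 to 0.42). Tlr4, the lipopolysaccharide receptor, had 72.9 and 51.8 scaled fragments in TMP195 libraries and 67.3 and 53.7 in vehicle libraries, and Tlr2, the lipopeptide receptor, had 52.7 and 59.5 in TMP195 libraries and 48.4 and 52.7 in vehicle libraries. Nlrp3, the inflammasome sensor, lay between 4.21 and 12.3 scaled fragments. Casp1, the protease that matures interleukin 1 beta, had 2 fragments in each TMP195 library and was listed at 0 in both vehicle libraries, too few for a test.

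Levels between genes were compared per length, with the FPKM values that the authors deposited for 41 of the genes. Ccl2 was the highest, with 342 and 368 FPKM in TMP195 libraries and 278 and 279 FPKM in vehicle libraries. Tnfrsf12a followed with 271 and 271 FPKM in TMP195 libraries and 179 and 219.5 FPKM in vehicle libraries, and Ccl20 with 88.3 and 109 FPKM in TMP195 libraries and 102 and 124 FPKM in vehicle libraries. The libraries of Ccl2 lay above those of Tnfrsf12a, and these above those of Ccl20, in both groups. Tnfrsf1a, at a mean of 95.7 FPKM in TMP195 libraries and 70.4 FPKM in vehicle libraries, and Il6st, at 103 FPKM in TMP195 libraries and 65.3 FPKM in vehicle libraries, came next in vehicle libraries. In TMP195 libraries the range of Ccl20 overlapped those of both receptors, while in vehicle libraries Ccl20 was above both. Il6, Tnf, Il1a and Il1b stayed under 1 FPKM in each library. Card9 averaged 5.01 FPKM in TMP195 libraries and 1.67 FPKM in vehicle libraries, well below the TNF receptors.

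**Figure D3:**
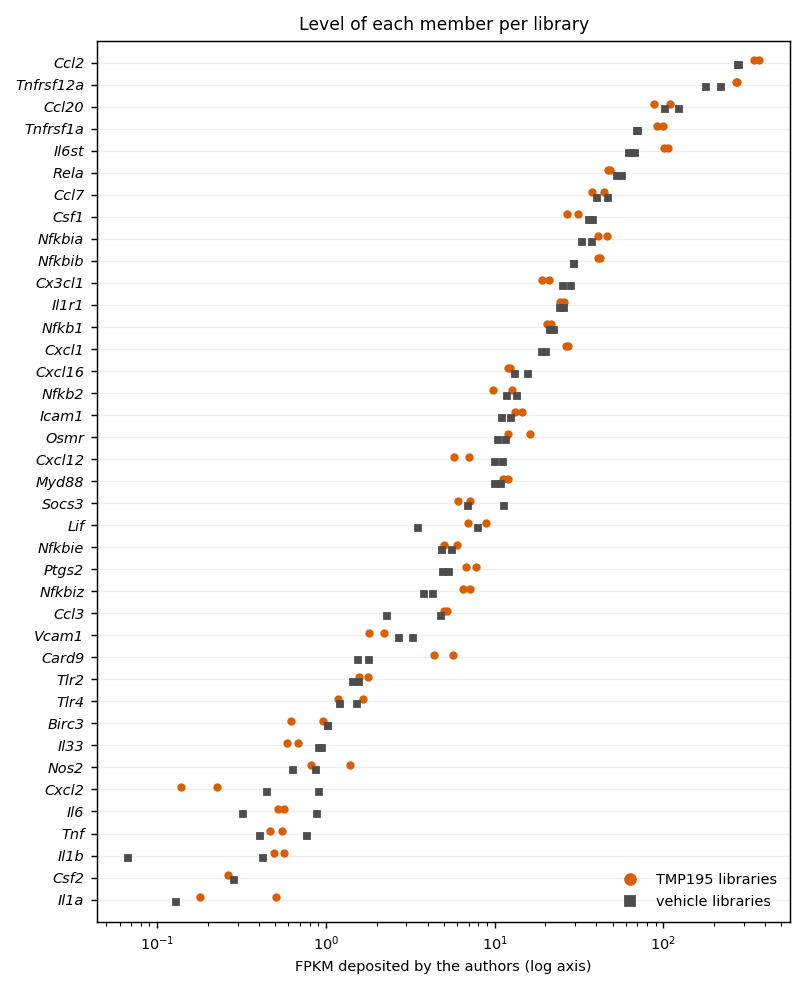
FPKM in each library (x axis, log scale) of the genes with a vehicle mean above 0 in the authors' deposited FPKM table, ordered by vehicle mean (y axis), with TMP195 libraries as orange circles and vehicle libraries as grey squares. Values of 0 cannot be drawn on the log axis and are left out (Csf2 in a library of each group and Il1a in a vehicle library). Ccl2 and Tnfrsf12a lead at over 100 FPKM in all 4 libraries, a level that Ccl20 and Il6st pass in some libraries. The cytokines Il6, Tnf, Il1a and Il1b lie under 1 FPKM.

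The authors' deposited sheets of higher and lower genes hold 594 and 623 of the 10673 genes in their table. Of the genes described here, the authors' deposited sheets list Cxcl1, Il6st, Nfkbib, Nfkbiz and Casp1 as higher and Cxcl12 as lower. Casp1 has an unadjusted p of 0.0278 in the authors' deposited table, on the 2 fragments per TMP195 library given above. Of the 12 genes called here, 5 are on these sheets. Ccl2, Cx3cl1, Csf1, Tnfrsf1a, Tnfrsf12a, Nfkbia and Card9 are on neither. Their unadjusted p in the authors' deposited table is 0.104, 0.065, 0.109, 0.0895, 0.175, 0.154 and 0.110, in that order.

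Calls were few among the other genes of these pathways. Of 210 further genes in 8 lists 158 were tested, of which 9 rose and 15 fell, 5.70% and 9.49% of those tested, beside 9.93% and 10.3% of all genes. Their median log2 fold change was -0.02. Most of the other chemokines, their receptors and the other cytokines had low values. Of 14 other chemokines 0 rose and 1 fell (median 0.38), of 9 chemokine receptors 0 rose and 1 fell (median -0.45), and of 18 other cytokines 0 rose and 1 fell (median -0.14). The chemokine was Cxcl10, an interferon-induced attractant of T cells, with 73.8 and 87.3 scaled fragments in TMP195 libraries and 129 and 126 in vehicle libraries (log2 fold change -0.66, limma adjusted p = 0.0367). Cxcl11, which shares its receptor, had 48.3 and 38.4 scaled fragments in TMP195 libraries and 23.7 and 24.2 in vehicle libraries, without passing (limma adjusted p = 0.132). Of 29 other cytokine receptors Lifr and Csf2rb (log2 fold change -0.92, limma adjusted p = 0.0486), the common beta chain of the receptors of GM-CSF and interleukin 3, fell, and Tnfrsf10b (0.66, limma adjusted p = 0.0266), a death receptor of TRAIL, rose.

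Of 35 genes that carry, restrain or modulate signals to NF-kB, 3 rose, 3 fell and 29 did not pass (median 0.01). Map3k14 encodes NIK, the kinase of the non-canonical branch that Fn14 engages. It had 395 and 426 scaled fragments in TMP195 libraries and 270.2 and 219 in vehicle libraries, with both TMP195 libraries higher (log2 fold change 0.75, SE 0.14, limma adjusted p = 0.000179). The A20-binding inhibitors moved in opposite directions. Tnip1 had 1643 and 1839.5 scaled fragments in TMP195 libraries and 2343 and 2234 in vehicle libraries (log2 fold change -0.40, limma adjusted p = 0.000482), and Tnip2 had 301 and 348 in TMP195 libraries and 238 and 191 in vehicle libraries (log2 fold change 0.60, limma adjusted p = 0.00443). Irak1, a kinase below Myd88, rose (0.31), while Tab2 (-0.27), an adaptor of the kinase TAK1, and Traf4 (-0.47) fell. Of 19 other NF-kB targets 3 rose and 1 fell (median 0.11). Ier3, an early response gene that modulates cell survival, had 3040 and 3482 scaled fragments in TMP195 libraries and 1881 and 2249.6 in vehicle libraries (log2 fold change 0.66, limma adjusted p = 7.12e-07). Ptx3, a secreted pentraxin, fell with a log2 fold change of -1.04 (limma adjusted p = 3.05e-05), and Bcl2l1 (0.28), which encodes BCL-XL, and Sod2 (0.22) rose.

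In the Toll and inflammasome list 1 of 16 genes rose and 2 fell (median -0.38). Casp4, the caspase that senses lipopolysaccharide in the cytosol, had 593 and 665 scaled fragments in TMP195 libraries and 305 and 299 in vehicle libraries, with no overlap (log2 fold change 1.05, SE 0.12, limma adjusted p = 7.74e-08). Its substrate Gsdmd, which forms the pores of pyroptosis, fell (-0.77, limma adjusted p = 0.00423), and so did Nod1, a sensor of bacterial peptidoglycan (-0.69, limma adjusted p = 0.00103). In the JAK-STAT list 1 of 18 rose and 4 fell (median 0.00). Socs6, a feedback gene of the SOCS family, rose to 3440 and 3290 scaled fragments in TMP195 libraries, against 2047 and 2143 in vehicle libraries (log2 fold change 0.68, limma adjusted p = 3.77e-08). Socs2 (-0.50), Stat5b (-0.48) and Pias3 (-0.39) were among those that fell.

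**Figure D4:**
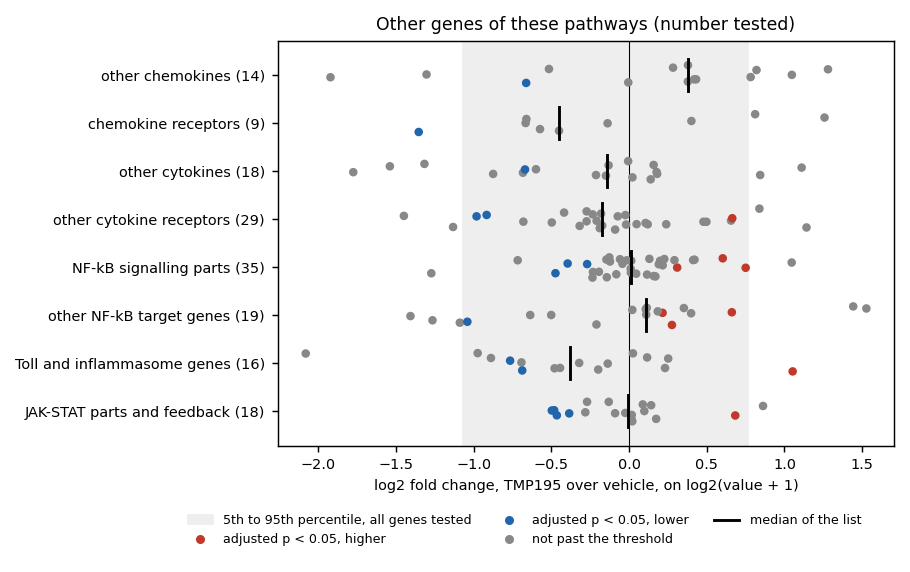
Log2 fold change (TMP195 over vehicle, x axis) of each tested gene in the 8 lists of other pathway genes (y axis, number tested in brackets), with red and blue for genes that rose and fell, a black bar for the list median and grey shading for the 5th to 95th percentile of all genes tested. Most points are grey, and Casp4 in the Toll and inflammasome list is the called gene farthest to the right.

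Markers of the other cell types that make or answer these signals were read beside the genes. Of 13 tested leukocyte and macrophage markers 1 rose (Itgam, with 30.8 and 23.0 scaled fragments in TMP195 libraries and 11.4 and 7.37 in vehicle libraries) and 12 did not pass. Of the 13, 8 had a log2 fold change above 0 and 5 below it. Their summed value was 730 and 702 in TMP195 libraries and 623 and 642 in vehicle libraries. The pan-leukocyte marker Ptprc had 36.0 and 22.1 scaled fragments in TMP195 libraries and 24.7 and 41.1 in vehicle libraries, the macrophage receptor Csf1r had 158 and 161 in TMP195 libraries and 147 and 124 in vehicle libraries, and Cd3e and Mpo were listed at 0 in all 4 libraries. Of 11 fibroblast markers 6 fell and 0 rose (median -0.47), and of 9 smooth muscle and mural markers 5 fell and 0 rose (median -0.51). The summed value of these 9 was 31037 and 31019 in TMP195 libraries and 35531 and 37262 in vehicle libraries. Most of each sum came from Des, which gave no call (18726 and 17794 in TMP195 libraries, 18222 and 20232 in vehicle libraries). The sums are therefore no measure of mural cells. Of 11 endothelial markers 3 fell and Flt1 rose (median -0.37; summed value 1984 and 2016 in TMP195 libraries, 2531 and 2575.0 in vehicle libraries), and Cldn5, which defines their junctions, was listed at 0 in all 4 libraries. Most of each endothelial sum came from Eng, which fell (1374 and 1489 in TMP195 libraries, 1764 and 1734 in vehicle libraries). These sums are therefore no measure of endothelial cells either. Kdr and Tek fell too, while 7 gave no call, among them Pecam1 (26.4 and 24.0 in TMP195 libraries, 19.9 and 36.9 in vehicle libraries). Of 12 cardiac myocyte markers 2 rose and 3 fell (median -0.06). Csf1, Cxcl12 and Cx3cl1 fell, as did fibroblast, mural and endothelial markers, and Vcam1 was lower without passing. The cardiac myocyte markers Myh7 (-0.41), Ryr2 (-0.40) and Actn2 (-0.25) fell as well. With 2 libraries per group, genes that fell are all lower in the same libraries, so moving together does not link them. The part of these cell types in the changes was not tested.

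**Figure D5:**
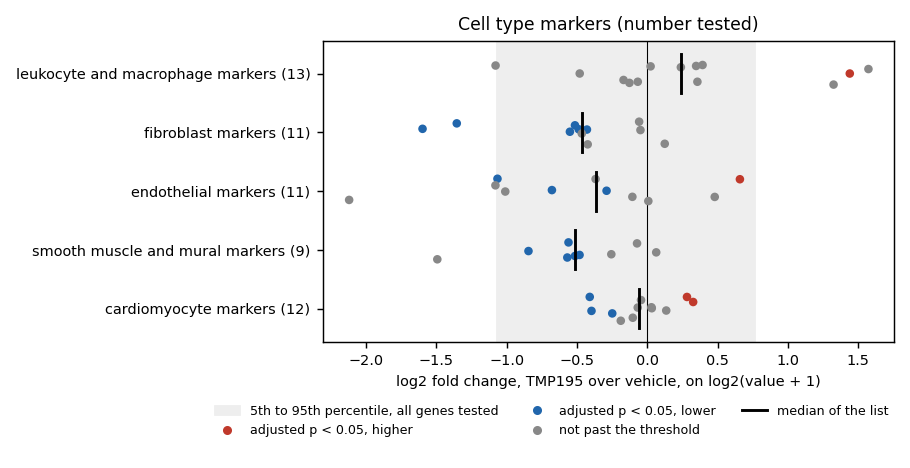
Log2 fold change (TMP195 over vehicle, x axis) of each tested marker of 5 cell types (y axis, number tested in brackets), drawn as in the plot of the pathway lists. The medians of the fibroblast, endothelial and mural lists lie left of 0, that of the cardiac myocyte list lies near 0 and that of the leukocyte list lies right of it.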

How the data were processed

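Per the labels' protocols, an Ovation RNA-Seq kit turned total RNA of NRVM cultures into libraries. The submitters' processing notes name Cufflinks. The aligner, the version of Cufflinks, and the annotation and build are not given in the sources at hand. The deposited main table holds a signal per gene and library: read from its values, estimated fragments times a library factor (99.3 to 99.5% of values up to 10000 fragments were whole within 0.1 fragment after division by it). A further deposited table holds FPKM values and the authors' p-value per gene, and the authors' sheets add a ratio of means.

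Libraries were grouped by title. limma 3.58.1 in R 4.3.3 was fitted to log2(value + 1) of the 12689 genes whose mean reached 1, with treatment as the only term, a trended prior and Benjamini-Hochberg adjustment (threshold 0.05; residual degrees of freedom 2, prior 27.4). On this scale fold changes understate the change of low genes. The fit was tested on simulated data. Alternatives were another pseudocount, other filters, library-total scaling, limma-voom, a replicate block and leaving out each library. Members, lists and alternatives were chosen with earlier results of these data known. The rule for named genes was to give values in each library for members past the threshold or with a mean of 100 or more, and to name up to 3 genes of smallest p per pathway list. Library values of lower members and of list genes, and other genes named, were chosen after their values were seen. Names were matched exactly or, for the other lists, through older RefSeq synonyms, and sequences are RefSeq's for GRCr8. The table gives no strand. A result on 1 further gene is not reported here.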

Additional observations from a re-analysis of the deposited data

How the results depend on the processing

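Of all tested genes 1260 rose and 1313 fell, and of the genes described here 9 and 3. With no filter on low values limma called 73 genes higher and 70 lower, and 1 of the genes described here higher and 0 lower. That 1 was Casp1, at 2 fragments per TMP195 library, while 11 of the 12 others kept an unadjusted p under 0.05 and the cause was not tested. With a pseudocount of 0.1, a minimum mean of 10, library-total scaling, limma-voom or the replicate block, 10 to 12 of the 12 calls remained, and 0 changed sign. Leaving out each library gave 0 to 322 genes higher and 0 to 406 lower, and 0 to 4 and 0 to 1 of the genes described here. With a minimum mean of 100, added after seeing the data, the same fits gave 7 to 8 of them higher and 3 to 5 lower. Same-numbered libraries share only a number: their deviations correlated at 0.00 over all tested genes and at -0.06 over the 8235 genes with a mean of 100 or more. With the replicate number as a block limma called 1193 genes higher and 1266 lower, and 9 and 3 of the genes described here. The planned TMM scaling and the 2 planned count tests were not run, because whole reads could not be recovered for every gene. At a mean between 1 and 10 scaled fragments, 0 of 6 genes described here and 0.99% of all genes were called.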
